A study of Homo sapiens with 12 samples.

Results

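The 10 immediate early genes FOS, FOSB, JUN, JUNB, EGR1, ATF3, IER2, IER3, DUSP1 and KLF6 were followed across 6 sorted populations of gastric cancer cells. They were taken by their gene symbols from the deposited table, and each had a row of its own among the 34595 genes with a value. All 10 lay above the floor on all 12 arrays (the floor is the intensity of 32.7 below which values were not distinguished), and so all were among the 20147 genes tested. The populations were CD133+ and CD133- cells of 3 gastric cancer lines with no treatment named, KATO-III, SNU-216 and SNU-601, grown in RPMI1640 with calf serum, with 2 Illumina HT-12 v3 arrays for each population. CD133, the product of PROM1, is a surface glycoprotein used to enrich stem-like cancer cells. Harvested cells were stained with a phycoerythrin-labelled antibody to CD133/1 (AC133) and sorted by flow cytometry, and the CD133+ gate took the brightest 10% and the CD133- gate the dimmest 6% of the cells, so that cells of middle brightness are in neither group. Each line is a single established culture, and it is not stated whether the 2 arrays of a population came from separate sorts, so p-values measure the spread between these arrays, which may be technical. The text deposited with the series names SNU201 where the labels of the arrays name SNU-216, and the labels were followed.

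Immediate early genes are transcribed within minutes of a stimulus, from factors already present in the cell and without new protein synthesis. FOS, FOSB, JUN, JUNB and ATF3 encode basic leucine zipper proteins that pair to form AP-1 and related complexes, EGR1 and KLF6 encode zinc finger transcription factors, IER2 and IER3 encode small proteins of growth and survival responses, and DUSP1 encodes a phosphatase that turns MAP kinases off. In epithelial cells they respond to growth factors, to cell detachment and to stress, and enzymatic dissociation and sorting are well known to induce many of them. All 12 arrays here are of sorted cells and unsorted cells were not analysed here, so the part of any level that arose during harvest, staining or sorting was not tested.

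PROM1 followed the sort in every line, with intensities of 9513 and 8847 in CD133+ against 4056 and 4493 in KATO-III CD133- cells, 9273 and 8773 against 2232 and 2219 in SNU-216, and 4877 and 4677 against 1315 and 1324 in SNU-601. The log2 difference in PROM1 was 1.10 in KATO-III, 2.02 in SNU-216 and 1.86 in SNU-601. Pairs of arrays of a population correlated at 0.993 to 0.995, and each array had 16320 to 16474 genes above the floor. The 7 epithelial markers (EPCAM, KRT8, KRT18, KRT19, CDH1, CLDN4, ELF3) lay above the floor on all 12 arrays. The endothelial markers PECAM1, VWF, CDH5 and KDR were above it on none, and neither were PTPRC, the pan-leukocyte marker, and CD3E, a T cell marker. Markers of other cells were not all absent, however. Among the genes tested were 4 of the 6 leukocyte markers, with intensities up to 10021, and 2 of the 6 fibroblast markers, with intensities up to 783.

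In KATO-III, 9 of the 10 genes were lower in CD133+ than in CD133- cells, and none was higher. In a limma fit to the 4 KATO-III arrays alone, 6 passed, beside 26.1% of all genes tested. FOS, JUNB and EGR1 did not pass in that limma fit (adjusted p = 0.0789, 0.0756 and 0.0638). FOSB, DUSP1, JUN and KLF6 fell by the most, with CD133- cells 6.70-fold, 3.45-fold, 2.81-fold and 2.47-fold above CD133+ cells, while FOS and EGR1 were 1.28-fold and 1.22-fold higher there. Across all genes tested, 20.6% passed the same test in the lower direction, 18.7% in the higher direction and 39.3% in either, so changes were common in this line. The 4 genes that were lower by more than 1 on the log2 scale stand beside 4.16% of all genes tested. The median log2 difference of the 10 genes was -0.87, beside 0.00 over all genes tested. The measurements are of bulk RNA, and fewer cells expressing a gene cannot be told apart from less RNA of that gene per cell.

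Among the AP-1 members, FOSB had intensities of 740.2 and 773 on the CD133+ arrays and 5028 and 5114 on the CD133- arrays of KATO-III (log2 difference -2.75, standard error 0.0480, adjusted p = 9.95e-09). FOSB is a partner of the JUN proteins and is usually silent in unstimulated cells. JUN, the most common partner of FOS proteins, had intensities of 2883 and 2897 in CD133+ and 8306 and 7916 in CD133- cells (log2 difference -1.49, standard error 0.0522, adjusted p = 3.68e-07). In both genes the pair of arrays within a fraction lay close together and far from the other pair. ATF3, a stress-induced repressor that pairs with JUN proteins, was at 506 and 459 in CD133+ cells and 969.5 and 882 in CD133- cells (log2 difference -0.94, standard error 0.0988, adjusted p = 9.82e-05). FOS itself, the best known member of the family, was at 5794 and 6551 in CD133+ and 7995 and 7729.5 in CD133- cells (log2 difference -0.35, standard error 0.0577, adjusted p = 0.00127). JUNB, which restrains JUN in many settings, was at 190.2 and 207 in CD133+ and 258 and 253 in CD133- cells (log2 difference -0.37, standard error 0.0827, adjusted p = 0.00706). The FOS and JUNB arrays did not overlap between the fractions, but their gaps were small beside those of FOSB and JUN.

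Of the zinc finger factors, KLF6, a growth-restraining factor, had intensities of 2017 and 1983 in CD133+ and 4816 and 5079 in CD133- cells of KATO-III (log2 difference -1.31, standard error 0.0446, adjusted p = 3.64e-07). EGR1, a target of serum response factor, was at 4967 and 4886 against 5737 and 6261 (log2 difference -0.28, standard error 0.0537, adjusted p = 0.00286), the smallest difference among the 9 genes called. DUSP1, which dephosphorylates MAP kinases, was at 1232 and 1339 in CD133+ and 4263 and 4616 in CD133- cells (log2 difference -1.79, standard error 0.0785, adjusted p = 1.13e-06). IER3, an inhibitor of apoptosis in many cells, was at 5217 and 4652 against 8621 and 8442 (log2 difference -0.79, standard error 0.0707, adjusted p = 3.99e-05). Each of these genes thus had its higher arrays in the CD133- cells. IER2 was the exception, at 289 and 466 in CD133+ cells, on either side of its 329 and 338 in CD133- cells (log2 difference 0.14, standard error 0.188, adjusted p = 0.642). Its value turned on the CD133+ arrays, as leaving out replicate 1 gave a log2 difference of 0.49 that passed the test and leaving out replicate 2 gave -0.21, which did not. In all, 9 of the 10 genes had arrays that did not overlap between the fractions, beside 70.7% of all genes tested.

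Some markers of other cells also differed between the KATO-III fractions. The summed intensity of the 6 fibroblast markers was 117 to 172 on the CD133+ arrays and 777 to 832 on the CD133- arrays. It came mostly from LUM (78.0 against 763, CD133+ against CD133- mean), as COL1A2, COL3A1, DCN and PDGFRB were not above the floor on 2 arrays and COL1A1 was at 59.2 against 23.9. The 6 leukocyte markers summed to 7999 to 8341 in CD133+ and 5826 to 6046 in CD133- cells, mostly through LYZ (7267 against 4615), while CD68 was at 36.0 against 92.9 and CD14 at 846 against 1222. The epithelial genes CDH1, which encodes E-cadherin, and ELF3 were also lower in CD133+ cells (log2 differences -0.70 and -0.91, adjusted p = 6.83e-05 and 1.68e-05 in limma). Such calls were not particular to KATO-III. Of the 7 epithelial markers, 1 was higher and 2 lower in SNU-216, beside 28.6% of all genes tested called. In SNU-601 0 were higher and 2 lower, beside 16.4%. The part of these differences in the immediate early result was not tested.

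**Figure D1:**
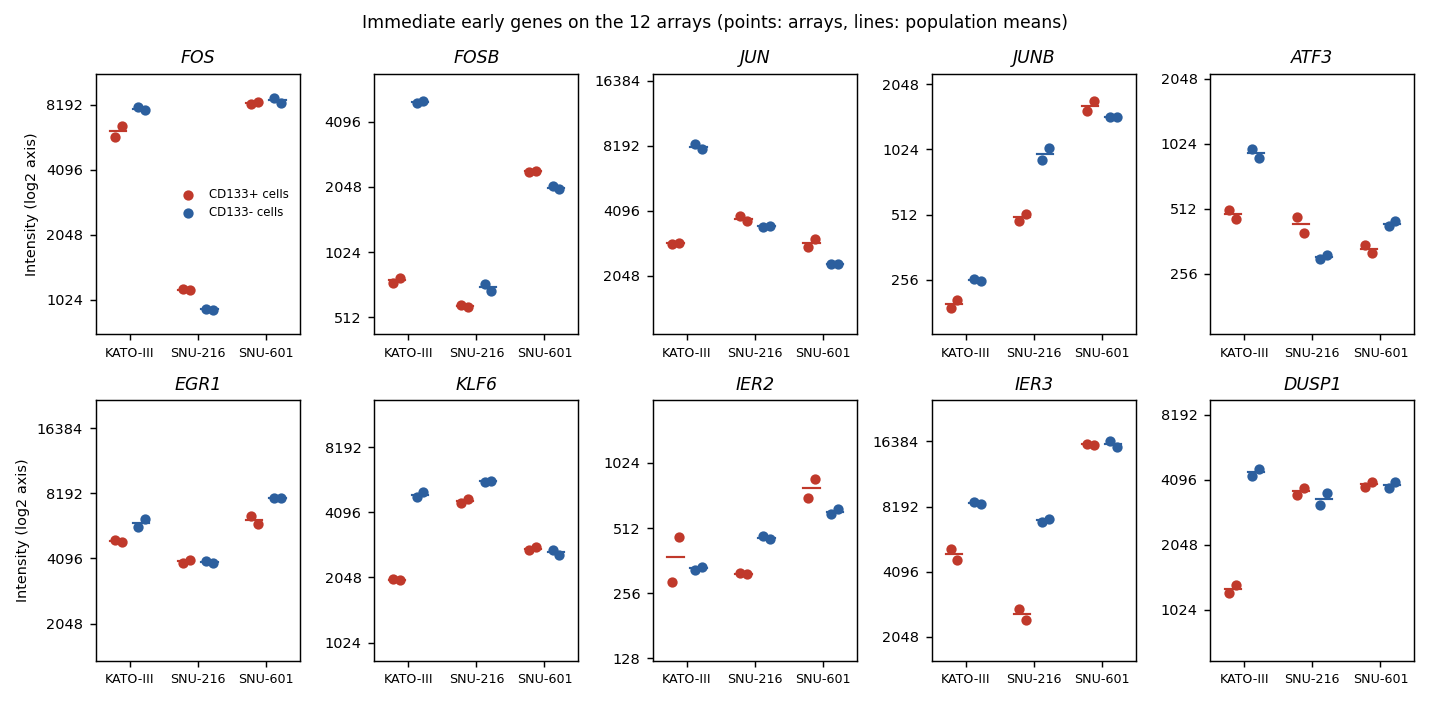
Intensity of the 10 immediate early genes on the 12 arrays, a panel for each gene, with the 3 lines on the x axis and intensity on a log2 axis that differs between panels. Points are single arrays (red, CD133+; blue, CD133-) and short lines are the means of the 2 arrays of a population. FOSB, JUN, DUSP1 and KLF6 show wide gaps between the KATO-III fractions, with the CD133- cells above, and IER3 shows its widest gap in SNU-216.

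The sequences before the transcription starts of FOSB, JUN, DUSP1 and KLF6 are given because these 4 genes had the largest differences in KATO-III, and that of EGR1 because it moved little there. RefSeq promoter windows on GRCh38.p14 were at hand for 9 of the 10 genes, all but IER3, with 2 starts for ATF3. Each line holds the 200 bases that end just before the start, on the strand of the gene, with motif matches in capitals. The motifs are the cAMP response element core TGACGT (CRE core), TGACNTCA (CRE-like), TGANTCA (AP-1 site), the CArG box bound by serum response factor and the NF-kB site, each searched on both strands over 250 bases.
FOSB (chr19:45467796-45467995, plus strand): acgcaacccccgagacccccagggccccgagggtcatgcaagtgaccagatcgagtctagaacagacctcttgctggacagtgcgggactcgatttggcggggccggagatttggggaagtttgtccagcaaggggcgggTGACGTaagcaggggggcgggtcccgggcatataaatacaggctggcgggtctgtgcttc
JUN (chr1:58784048-58784247, minus strand): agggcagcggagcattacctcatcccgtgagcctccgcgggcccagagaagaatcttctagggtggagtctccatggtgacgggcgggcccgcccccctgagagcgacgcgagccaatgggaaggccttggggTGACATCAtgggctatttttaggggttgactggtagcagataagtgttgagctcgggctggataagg
DUSP1 (chr5:172771196-172771395, minus strand): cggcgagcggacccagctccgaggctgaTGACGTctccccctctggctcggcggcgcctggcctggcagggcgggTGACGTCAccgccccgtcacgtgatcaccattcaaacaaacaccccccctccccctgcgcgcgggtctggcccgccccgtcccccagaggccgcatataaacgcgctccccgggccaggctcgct
KLF6 (chr10:3785210-3785409, minus strand): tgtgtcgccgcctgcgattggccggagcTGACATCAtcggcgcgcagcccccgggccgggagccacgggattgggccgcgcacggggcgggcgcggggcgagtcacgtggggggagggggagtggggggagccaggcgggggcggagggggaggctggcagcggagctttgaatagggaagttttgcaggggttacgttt
EGR1 (chr5:138465279-138465478, plus strand): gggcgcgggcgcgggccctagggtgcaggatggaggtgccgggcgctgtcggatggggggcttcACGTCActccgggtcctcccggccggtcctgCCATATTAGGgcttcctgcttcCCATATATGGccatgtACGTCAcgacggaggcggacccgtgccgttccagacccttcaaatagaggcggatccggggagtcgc
The CRE core was found before FOS, FOSB, EGR1 and DUSP1, in 7.10% of all 35116 windows of the same length. The CRE-like motif, which was added once these sequences had been seen, was found before JUN, ATF3, DUSP1 and KLF6, in 6.87% of all windows. In DUSP1 the CRE-like match holds a CRE core match on each strand. Either motif lay before 7 of the 9 genes, in 12.1% of all windows, and JUNB and IER2 had neither in these letters. Within the 250 bases searched, the CArG box was matched in EGR1 alone among the 9 genes, where it occurs at 2 places, and in 1.16% of all windows. Bases further upstream were not searched, so a missing match does not show that a gene lacks the motif. No window of the 9 genes held the AP-1 motif or the NF-kB motif, which lie in 6.57% and 5.21% of all windows. A CRE-type match thus stands before genes with large differences in KATO-III and before FOS and EGR1, which differed little, and a match is a run of letters and no measured binding.

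**Figure D2:**
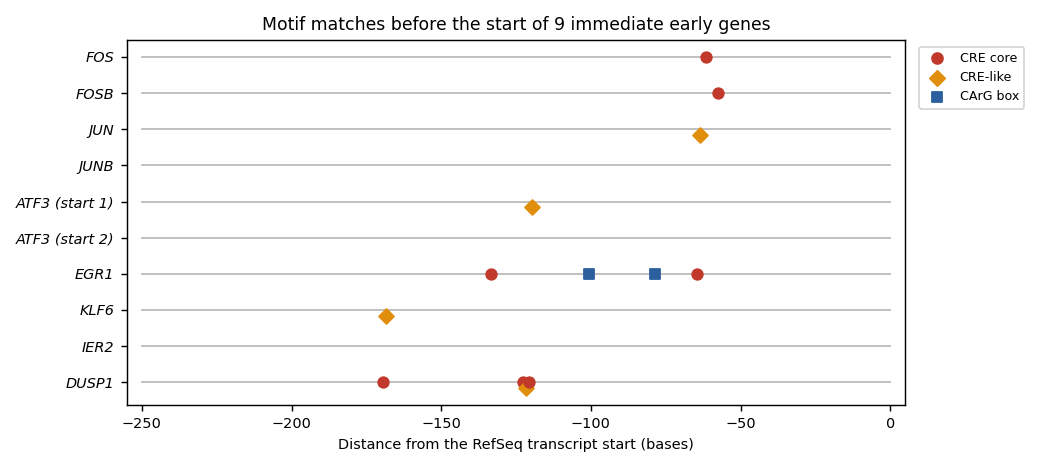
Positions of motif matches in the 250 bases before the RefSeq transcript start of 9 immediate early genes, with distance from the start in bases on the x axis and a line for each start (ATF3 has 2). Circles are the CRE core, diamonds the CRE-like motif and squares the CArG box, which is present before EGR1 at 2 places.

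In SNU-216, 6 of the 10 genes passed the test, FOS and ATF3 higher and IER3, JUNB, KLF6 and FOSB lower in CD133+ cells, beside 14.6% of all genes tested that were higher and 14.0% that were lower, 28.6% in all. The largest difference was that of IER3, with intensities of 2756 and 2443 in CD133+ and 6958 and 7174 in CD133- cells (log2 difference -1.44, standard error 0.0707, adjusted p = 3.80e-06, 2.72-fold higher in CD133- cells). It is the only member past 1 on the log2 scale here, beside 1.55% of all genes tested in that direction. JUNB followed, at 479 and 514 against 912 and 1036 (log2 difference -0.97, standard error 0.0827, adjusted p = 6.37e-05). The arrays of each fraction stood well apart in both genes.

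The other changes in SNU-216 were smaller. ATF3 was at 469.5 and 398 in CD133+ and 299 and 314 in CD133- cells (log2 difference 0.50, standard error 0.0988, adjusted p = 0.00529), and FOS at 1156 and 1133 against 935 and 918 (log2 difference 0.31, standard error 0.0577, adjusted p = 0.00408), so that these AP-1 members had the opposite direction to JUNB. KLF6 was at 4515 and 4702 against 5678 and 5739 (log2 difference -0.31, standard error 0.0446, adjusted p = 9.80e-04). FOSB was at 581 and 568 against 729 and 679.8 (log2 difference -0.29, standard error 0.0480, adjusted p = 0.00195), a small difference beside that in KATO-III. IER2, at 317 and 314 against 469 and 453, did not overlap between the fractions but missed the threshold (log2 difference -0.55, standard error 0.188, adjusted p = 0.0596). It passed in 4 other settings (a floor of 100, an offset of 100, a filter of 6 arrays and the 4 arrays of the line alone, adjusted p between 0.0230 and 0.0423) and without either KATO-III CD133+ array (adjusted p = 0.00566 and 0.00576), so its call depends on the setting. In the fit to the 4 arrays of the line alone, FOSB and ATF3 did not pass. JUN, DUSP1 and EGR1 had log2 differences of 0.11, 0.11 and 0.01 and did not pass (adjusted p = 0.158, 0.363 and 0.971 in limma). Arrays did not overlap in 8 of the 10 genes, beside 60.9% of all genes tested, and the median log2 difference was -0.14. The macrophage marker CD68 was also lower in CD133+ cells of this line (187 against 407), with the 6 leukocyte markers summing to 206 to 218 against 424 to 469 and the fibroblast markers to 97.7 to 99.7 against 24.1 to 44.4; the part of these in the result was not tested.

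In SNU-601 the differences were small, and 4 of the 10 genes passed the test, beside 16.4% of all genes tested (8.59% higher and 7.78% lower). JUN and FOSB were higher in CD133+ cells, at 2770.0 and 3043 against 2332 and 2320.4 for JUN (log2 difference 0.32, standard error 0.0522, adjusted p = 0.00419). For FOSB the intensities were 2415 and 2419 against 2064 and 2002 (log2 difference 0.25, standard error 0.0480, adjusted p = 0.00874). The direction of both genes was thus opposite to that in KATO-III. ATF3 was lower in CD133+ cells, at 349.7 and 322 against 426 and 449 (log2 difference -0.38, standard error 0.0988, adjusted p = 0.0304), and so was EGR1, at 6414 and 5932 against 7808 and 7779 (log2 difference -0.34, standard error 0.0537, adjusted p = 0.00373). The call for ATF3 was lost without the filter, with the replicate block and on leaving out any of the 4 SNU-601 arrays (adjusted p between 0.0609 and 0.146). IER2, at 707 and 859 against 591 and 626, and JUNB, at 1549 and 1718 against 1445 and 1444, did not pass (0.36 and 0.18 on the log2 scale, adjusted p = 0.264 and 0.206 in limma), though IER2 passed without either KATO-III CD133+ array. FOS, KLF6, DUSP1 and IER3 had log2 differences between -0.04 and 0.06. IER3 had its highest level of any population in this line and the same level in both fractions to within the spread of the arrays (15982 and 15850.1 against 16469 and 15433). Arrays did not overlap in 7 of the 10 genes, beside 55.0% of all genes tested, and the median log2 difference was 0.03. These 4 calls depend on the spread shared with the other lines, since a limma fit to the 4 SNU-601 arrays alone called 0 of the 10 genes, with 4 at an unadjusted p under 0.05, and 1.04% of all genes tested. CD68 was lower in CD133+ cells here too (1148 against 1576), in leukocyte marker sums of 10290.0 to 10339.7 against 10980.0 to 11699.7 that are mostly LYZ, and the fibroblast markers summed to 153 to 201 against 139 to 196. Of the 4 leukocyte markers tested, 1 was called higher and 1 lower in CD133+ cells of this line.

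**Figure D3:**
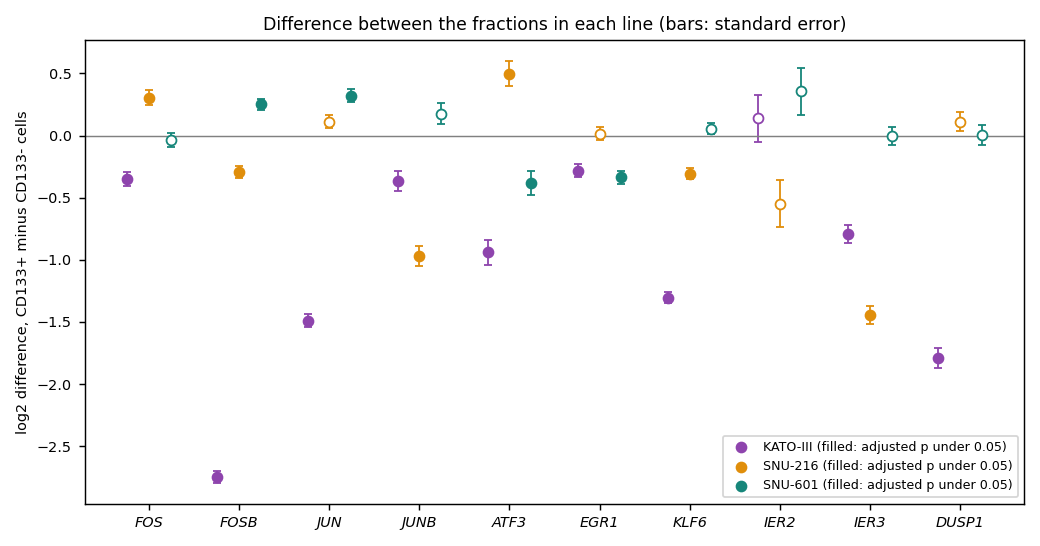
Log2 difference in intensity, CD133+ minus CD133- cells, for each of the 10 genes in KATO-III (purple), SNU-216 (orange) and SNU-601 (green). Bars are standard errors from the limma fit, filled points passed an adjusted p of 0.05 and open points did not. The KATO-III points reach -2.75 for FOSB, while the SNU-601 points stay between -0.38 and 0.36.

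The difference between the fractions was itself unequal across the lines for all 10 genes by a moderated F test of their interaction in limma, beside 44.4% of all genes tested. FOSB was the most uneven of the 10 (adjusted p = 1.39e-07), its change in KATO-III lying -2.45 on the log2 scale from that in SNU-216 (standard error 0.0678, adjusted p = 2.57e-07) and -2.99 from that in SNU-601 (standard error 0.0678, adjusted p = 1.52e-07). IER2 was the least certain (adjusted p = 0.0465), and its call was lost with a floor of 16, no filter, no trend, the replicate block and on leaving out any array but the KATO-III CD133+ arrays. In pairs of lines, the change in KATO-III differed from that in SNU-216 for 9 genes, all but IER2, beside 32.0% of all genes tested. It differed from that in SNU-601 for 8 genes, all but EGR1 and IER2, beside 30.1%. Between SNU-216 and SNU-601 the change differed for 8 genes, all but JUN and DUSP1, beside 28.2%. For IER3 the change in SNU-216 was -1.44 from that in SNU-601 (standard error 0.0999, adjusted p = 3.64e-05).

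Over all lines together, with line as a block, IER3 alone of the 10 genes passed the test (log2 difference -0.75, standard error 0.181, adjusted p = 0.0412), beside 2.11% of all genes tested that were lower in CD133+ cells, 2.62% that were higher and 4.73% in all. Its difference came from KATO-III and SNU-216, as SNU-601 had none beyond its arrays. The call was lost when the mean-variance trend, the filter on dim genes or the independence of the 2 arrays was given up or the replicate number was added as a block (adjusted p up to 0.796), and in each fit without a KATO-III or SNU-216 array, where the adjusted p rose to at most 0.106. The other 9 genes had log2 differences between -0.93 (FOSB) and -0.02 (IER2) that did not pass, with 5 of the 10 genes at an unadjusted p under 0.05. By the signal-to-noise ratio, the difference of the 6 array means divided by the summed SDs, none of the 10 genes was past 1 or -1, beside 1.06% of all genes tested. None was past them on log2 intensities either. The ratios on linear intensities ran from -0.53 for DUSP1 to 0.07 for IER2.

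The lines differed in the level of all 10 genes by limma's moderated F test, beside 72.3% of all genes tested. Single pairs of populations from different lines differed in 46.9% to 60.0% of all genes tested. FOS had the widest range, 9.26-fold between its highest and lowest population. Its mean was 8581 in SNU-601 CD133- and 8366 in SNU-601 CD133+ cells, 7862 in KATO-III CD133- and 6173 in KATO-III CD133+ cells, and 1144 and 926 in SNU-216 CD133+ and CD133- cells. Neighbours among the top 3 of these populations did not differ beyond their spread (adjusted p = 0.802 and 0.258 in limma), whereas the step down to SNU-216 was wide. FOSB spanned 8.83-fold and had another order, from 5071 in KATO-III CD133- over 2417 and 2033 in SNU-601 CD133+ and CD133- to 757 in KATO-III CD133+, 704 in SNU-216 CD133- and 575 in SNU-216 CD133+ cells. KATO-III CD133+ and SNU-216 CD133- cells were not separated by the test (adjusted p = 0.0927), so the fractions of KATO-III held both the highest level of FOSB and a level near the lowest.

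JUNB spanned 8.23-fold, with 1634 and 1444 in SNU-601 CD133+ and CD133- cells, which were not separated (adjusted p = 0.206), then 974 and 497 in SNU-216 CD133- and CD133+ and 256 and 198 in KATO-III CD133- and CD133+ cells. The JUNB order kept each line together. IER3 spanned 6.14-fold, from 15951 and 15916 in SNU-601 CD133- and CD133+ cells, over 8531 in KATO-III CD133-, 7066 in SNU-216 CD133- and 4935 in KATO-III CD133+ cells, to 2599.7 in SNU-216 CD133+ cells. Every step but that within SNU-601 passed the test for IER3 (adjusted p = 1.00 for that step).

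JUN spanned 3.49-fold, with KATO-III CD133- cells at 8111 and the next population, SNU-216 CD133+, at 3756, followed by SNU-216 CD133- at 3475, SNU-601 CD133+ at 2907, KATO-III CD133+ at 2889.8 and SNU-601 CD133- at 2326. Neighbours not separated by the test were the SNU-216 fractions (adjusted p = 0.158) and SNU-601 CD133+ beside KATO-III CD133+ cells (adjusted p = 0.978). DUSP1 spanned 3.45-fold, but 5 of its 6 populations lay between 3351 and 4439, with no step between neighbours that passed (adjusted p between 0.0833 and 1.00). KATO-III CD133+ cells stood below them at 1285 (adjusted p = 3.60e-07). KLF6 spanned 2.85-fold, from 5708 in SNU-216 CD133- cells over 4948 in KATO-III CD133-, 4609 in SNU-216 CD133+, 2786 in SNU-601 CD133+ and 2680.3 in SNU-601 CD133- to 1999.8 in KATO-III CD133+ cells. KLF6 did not differ beyond its spread between KATO-III CD133- and SNU-216 CD133+ cells (adjusted p = 0.0879) or between the SNU-601 fractions (adjusted p = 0.487). For DUSP1 and KLF6 the lowest population was thus the CD133+ cells of KATO-III.

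ATF3 spanned 3.02-fold and was highest in KATO-III CD133- cells (926), above KATO-III CD133+ at 483, SNU-601 CD133- at 437, SNU-216 CD133+ at 434, SNU-601 CD133+ at 336 and SNU-216 CD133- at 306. The populations ranked from the second to the fourth for ATF3 were not separated from their neighbours within these ranks (adjusted p = 0.262 and 0.966), nor was the lowest pair (adjusted p = 0.326). IER2 spanned 2.47-fold, from 783 and 609 in SNU-601 CD133+ and CD133- cells over 461 in SNU-216 CD133-, 378 in KATO-III CD133+ and 333 in KATO-III CD133- to 315 in SNU-216 CD133+ cells, and no step between neighbours passed (adjusted p between 0.110 and 0.801). EGR1 had the narrowest range, 1.98-fold, from 7794 and 6173 in SNU-601 CD133- and CD133+ over 5999 and 4926 in KATO-III CD133- and CD133+ to 3966 and 3927 in SNU-216 CD133+ and CD133- cells. EGR1 was not separated between SNU-601 CD133+ and KATO-III CD133- cells (adjusted p = 0.611) or between the SNU-216 fractions (adjusted p = 0.971). The order of the populations was the same as that of FOS.

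The further lists were counted beside the shares of all genes tested given above for each line. Of 10 other AP-1 subunits tested, 0 were higher and 3 lower in CD133+ cells of KATO-III (median log2 difference -0.23), beside 39.3% of all genes tested called in either direction. The 3 were BATF (222 against 448, log2 difference -1.02, adjusted p = 1.23e-04), FOSL2 (-0.53) and ATF2 (-0.44), all of them basic leucine zipper partners within AP-1. In SNU-216 FOSL2 was lower (-0.42) and ATF2 higher (0.52), and in SNU-601 limma called 0 of the 10, with 0 at an unadjusted p under 0.05. Of 8 other immediate early transcription factors tested, 4 were higher and 3 lower in KATO-III. The largest of these was CSRNP1, listed as AXUD1, a nuclear protein induced by AXIN1, at 462 against 1669 (log2 difference -1.85, adjusted p = 3.68e-07). KLF2 (-0.63) and KLF10 (-0.57) were lower and NR4A2 (0.71), NFIL3 (0.54), EGR4 (0.51) and KLF4 (0.43) higher. EGR3, NR4A1 and NR4A3 were above the floor on no array. In SNU-216 1 of these factors was higher (KLF4, 0.52) and 1 lower (KLF2, -0.78), and in SNU-601 2 were higher (KLF10, 0.61, and KLF2, 0.21) and 0 lower.

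Of 20 other immediate early genes tested, which encode no DNA-binding factor, 11 were lower in CD133+ cells of KATO-III, beside 20.6% of all genes tested, and 2 higher (IER5L, 0.68, and PHLDA1, 0.24), with a median log2 difference of -0.34. The largest differences were those of BTG2, an antiproliferative gene (-1.31, adjusted p = 0.00693), ZFP36, which destabilizes AU-rich mRNAs (2532 against 6073, -1.26, adjusted p = 2.38e-06), SIK1, a kinase that restrains CREB coactivators (-1.16, adjusted p = 2.15e-04), and PPP1R15A, which encodes GADD34 of the stress response (7764 against 12484, -0.69, adjusted p = 2.41e-05). In SNU-216 6 of the 20 were lower and 4 higher (CTGF, SIK1, MCL1 and SGK1), beside 14.0% and 14.6% of all genes tested, and in SNU-601 1 was lower (HBEGF, -0.19) and 5 were higher (CTGF, GADD45B, IER5L, GADD45A and PHLDA1), beside 7.78% and 8.59%. CTGF, a matricellular target of YAP and serum response factor, was the largest in both, at 7934 against 3259 in SNU-216 (1.29, adjusted p = 1.38e-04) and 1954 against 889 in SNU-601 (1.13, adjusted p = 8.66e-04), but was lower in CD133+ cells of KATO-III (-0.37, adjusted p = 0.0496).

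Upstream of these genes, 2 of 8 genes for serum response factor, its partners and the EGR corepressors were higher and 2 lower in KATO-III. SRF was lower in CD133+ cells (2567 against 4924, log2 difference -0.94, adjusted p = 3.28e-05), as was its partner ELK1 (-0.33), while the coactivator MKL2 (1.49) and the EGR corepressor NAB1 (0.72) were higher. In SNU-216 2 were higher (MKL2, 1.03, and MKL1, 0.34) and 0 lower, and in SNU-601 1 was higher (ELK1, 0.25) and 0 lower.

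Among the other MAP kinase phosphatases, DUSP6, a phosphatase that growth factor signalling itself induces, moved against DUSP1 in KATO-III. It was higher in CD133+ cells of KATO-III (3439 against 1008, log2 difference 1.77, adjusted p = 1.24e-06), of SNU-216 (129.8 against 104, 0.32, adjusted p = 0.0148) and of SNU-601 (2009.8 against 1435, 0.49, adjusted p = 0.00415). Of the 8 tested, 1 was higher and 2 lower in KATO-III (DUSP16, -0.88, and DUSP8, -0.80), 1 higher and 2 lower in SNU-216 (DUSP8, -0.94, and DUSP4, -0.50), and 3 higher and 1 lower in SNU-601, where DUSP4 (0.64) and DUSP10 (0.52) joined DUSP6 and DUSP16 (-0.65) was the lower.

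Heat shock genes, NF-kB targets and proliferation markers were counted in the same way. Of 15 heat shock and ubiquitin genes tested, 2 were higher and 2 lower in KATO-III (median log2 difference -0.03). They were HSPE1 (0.37), HSPD1 (0.14), HSPA1L (-0.86) and HSPA1B (-0.39), of which HSPA1B shares nearly all its sequence with HSPA1A. HSPA6, which is strictly inducible by heat, was above the floor on no array. In SNU-216 2 were lower (HSF1, -0.85, and HSPB1, -0.53) and 0 higher, and in SNU-601 limma called 0 of the 15, with 2 at an unadjusted p under 0.05. Of 10 early targets of NF-kB, 4 were lower and 1 higher in KATO-III, namely the feedback regulators NFKBIZ (-1.30), TNFAIP3 (-1.19) and NFKBIA (-0.70) and the survival gene BIRC3 (-1.10), with the chemokine gene IL8 higher (0.79). The counts for these targets were 1 higher (BIRC3, 0.62) and 2 lower (CXCL3, -1.03, and RELB, -0.35) in SNU-216. In SNU-601 3 were higher and 0 lower, with CXCL1 the largest (714 against 221, 1.81), before IL8 (0.74) and NFKBIA (0.31). Of 11 proliferation markers, 7 were higher and 0 lower in KATO-III (median 0.58), led by the mitotic genes BUB1 (1.47) and CCNB1 (1.33). The count was also high in SNU-601, 9 of 11 higher (median 0.57), and in SNU-216 it was 2 higher (CDC2, 0.89, and TOP2A, 0.32) and 1 lower (PLK1, -0.56).

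**Figure D4:**
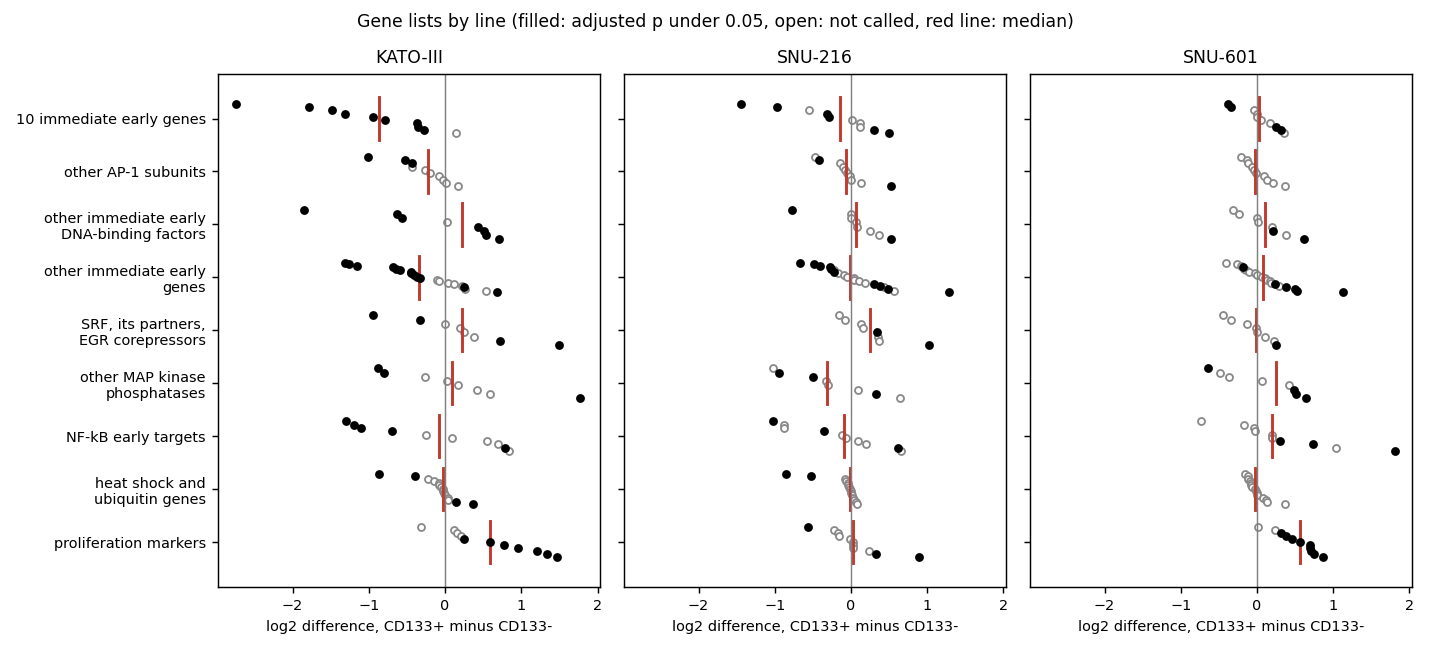
Log2 difference, CD133+ minus CD133- cells, of the 10 immediate early genes and of 8 further gene lists in each line. Points are genes (filled, adjusted p under 0.05; open, not called) and red lines are medians. The median of the 10 genes is -0.87 in KATO-III, -0.14 in SNU-216 and 0.03 in SNU-601, while the proliferation markers lie to the right of 0 in KATO-III and SNU-601.

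Genes whose pattern was most like that of a member were sought for the 4 members with the widest ranges, by Pearson's r of log2 intensity over the 12 arrays among all genes tested. These correlations describe 6 populations measured in pairs, and differences between lines weigh most in them. For FOS the closest genes were WBP5, MANSC1 and ETV5 (0.998, 0.998 and 0.998), and 620 genes had an r over 0.95. For FOSB they were TOM1, OKL38 and ABP1 (0.991, 0.991 and 0.986), with 17 genes over 0.95. For JUNB they were UBAP2L, MAP4K4 and OSGEP (0.988, 0.987 and 0.987), with 97 genes over 0.95, and for IER3 FAM62B, RPPH1 and HIST1H4K (0.990, 0.984 and 0.983), with 27. A pattern such as that of FOS, which mainly separates SNU-216 from the other lines, is thus shared by many genes, and that of FOSB by few. Among the members themselves, FOS and EGR1 were the most alike (r = 0.883), and JUNB and ATF3 the least (r = -0.679). With each line's mean taken off, the order was another, with FOSB and KLF6 the most alike (r = 0.988, against -0.00879 before) and FOS and EGR1 at 0.488. The wide KATO-III differences weigh most in those values.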

How the data were processed

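Total RNA of FACS-sorted cells was amplified, biotinylated and hybridised to Illumina HT-12 v3 BeadChips. Each row of the table is a gene symbol, and its values are intensities that the authors had quantile-normalized and corrected for background, on a linear scale. The submitters' processing notes name BeadStudio, and the way probes were combined into a gene value is not given in the sources used here. Of 34688 rows, 93 were empty, 92 of them spike-in controls, and 32.1% of values were at or below 0. No sample column was left unused.

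Intensities under 32.7, the size of the 1st percentile, were set to it and log2 was taken. Genes above that floor on at least 2 arrays entered limma 3.58.1 under R 4.3.3 (mean-variance trend, Benjamini-Hochberg adjusted p of 0.05 over all 20147 genes). A fit of 6 population means (6 residual degrees of freedom) gave differences within lines, the interaction, the levels of lines and the 15 pairs of populations. A fit with line as a block (8 residual degrees of freedom) gave the difference over all lines, and the signal-to-noise ratio, whose formula and scale the study's text leaves unnamed, was taken on linear intensities with its threshold of 1 and again on log2 values. Differences are on the floored log2 scale and understate changes of genes near the floor. The number of arrays limits the precision. The tests were tested on simulated data.

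The members and all gene lists were chosen with earlier results of these data known. The text names all members, PROM1 and the cell type markers, at most 4 genes of each list with the largest difference among those called within a line and any gene that a count of 5 or fewer refers to, and 3 genes most like each of 4 members. The values of CTGF in KATO-III are given outside that rule, after they were seen. 4 list symbols had no row, and a further list is not reported here. Promoter sequences are from RefSeq, and the AP-1, CRE, CArG and NF-kB motifs were searched by exact letters. The alternatives were floors of 16 and 100, an offset of 100, median centring, repeated quantile normalization, a filter of 6 arrays, no filter, no trend, a replicate block, averaged or randomly blocked populations, fits to 4 arrays of a line, and leaving out each array.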

Additional observations from a re-analysis of the deposited data

Results flagged for a closer look

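The difference between CD133+ and CD133- cells differed between the 3 lines for the 10 genes, by a moderated F test of their interaction in limma over the 12 arrays. For the AP-1 members the adjusted p was 1.39e-07 for FOSB, 2.11e-06 for JUN, 1.86e-04 for ATF3, 2.51e-04 for JUNB and 7.11e-04 for FOS. FOSB, for example, was lower in CD133+ cells of KATO-III and SNU-216 (log2 differences -2.75 and -0.29) and higher in SNU-601 (0.25). ATF3 was lower in KATO-III and SNU-601 (-0.94 and -0.38) and higher in SNU-216 (0.50). For the other genes the adjusted p was 5.09e-06 for KLF6, 1.00e-05 for DUSP1, 3.45e-05 for IER3, 0.00939 for EGR1 and 0.0465 for IER2, which lost its call under several alternatives. Since 44.4% of all genes tested also passed this test, unequal differences between lines were common in these data.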

How the results depend on the processing

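The counts of members called in KATO-III (9), in SNU-216 (6), for the interaction (10) and between lines (10) stayed within 1.5 times under every alternative run. The single call over all lines fell to 0 without the filter, in eBayes without a trend, with the replicate block, with the arrays of each population averaged, and with population as a random block, where 4, 5, 3, 1 and 5 members had an unadjusted p under 0.05 in limma, and it ranged from 0 to 1 when arrays were left out in turn. With only the 4 arrays of a line in limma, the count was 6 in KATO-III, where FOS, JUNB and EGR1 were lost, 5 in SNU-216, where FOSB and ATF3 were lost (adjusted p = 0.0713 and 0.111) and IER2 was gained (0.0305), and 0 in SNU-601, with 4 at an unadjusted p under 0.05. Leaving out single arrays gave 9 to 9 members in KATO-III, 6 to 7 in SNU-216, 3 to 5 in SNU-601, 9 to 10 for the interaction and 10 to 10 between lines. In KATO-III the 9 were not the same genes in each of these fits. Without its CD133+ replicate 1, JUNB (log2 difference -0.31) lost its call and IER2 (0.49) gained one as higher. Wherever the interaction count was 9, IER2 was the gene lost. Arrays with the same replicate number did not deviate together (correlations of 0.0261, 0.0129 and -0.00648 in the 3 lines). Such correlations cannot show whether equal numbers mark arrays of the same sort. The replicate block gave 9, 6, 3 and 0 members in KATO-III, SNU-216, SNU-601 and over all lines, 9 for the interaction and 10 between lines. The reversals were of differences that had not passed the test. IER3 in SNU-601 became 0.0308 with centred arrays and 0.00327 with repeated quantile normalization, and IER2 over all lines 0.00961 and 0.00243. On leaving out arrays, FOS over all lines ran from -0.0727 to 0.0350, IER2 over all lines from -0.123 to 0.0555, IER2 in KATO-III from -0.205 to 0.486, EGR1 in SNU-216 from -0.0123 to 0.0410, IER3 in SNU-601 from -0.0493 to 0.0444 and DUSP1 in SNU-601 from -0.0402 to 0.0513. Of the log2 differences of single members recomputed otherwise, 386 kept direction and side of the threshold, 16 lost and 4 gained a call and 4 reversed, and with single arrays left out the numbers were 448, 13, 5 and 14. The cause of these changes was not tested. The 2 arrays of a population limit every test here, and no setting restores the spread between sorts or between culture days.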
